A study of Drosophila melanogaster with 54 samples.

Results

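The regions described here are the Hox-bound regions of Kc167 cells that lie far from any promoter. The 8 Hox lists and the 8 Hox+Hth lists of bound regions were merged wherever regions overlapped by 1 bp, which gave 14630 merged regions, and those whose centre lay more than 10 kb from every annotated transcription start site were kept. There were 865 such distal regions, 5.91% of all merged regions, and the remaining 13765 are called the other regions. Kc167 is a Drosophila cell line of embryonic origin with features of haemocytes, the blood cells of the fly. According to the study the cells lack Homothorax (Hth) and hold Extradenticle (Exd) in the cytoplasm. Each Hox protein was expressed as a fusion with GFP from a transiently transfected plasmid under the copper-inducible metallothionein promoter pMT, either together with Hth from the same transcript (the Hox+Hth groups Lab+Hth, Pb+Hth, Dfd+Hth, Scr+Hth, Antp+Hth, Ubx+Hth, Abd-A+Hth and Abd-B+Hth) or without it (the Hox groups, called by the protein's name alone). The GFP stood at the carboxyl end of Lab and at the amino end of the other proteins. Exd tagged with GFP was expressed together with Hth (Exd+Hth), and Hth tagged with GFP was expressed by itself (Hth). All groups received 1 mM copper sulphate for 4 h, were fixed with 1% formaldehyde for 10 min, sorted for a common range of GFP and immunoprecipitated with anti-GFP. The 54 samples were 36 ChIP libraries, 2 for each of 18 groups, and 18 inputs.

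Hox proteins are homeodomain transcription factors that give the segments of the fly their identities along the body axis, with Lab the most anterior and Abd-B the most posterior. Their homeodomains bind short AT-rich sites, and the TALE homeodomain proteins Exd and Hth bind DNA beside them, Hth being needed to bring Exd into the nucleus. Many developmental enhancers of Drosophila lie far from the promoters they act on, often in long introns or in gene-free stretches around transcription factor and cell adhesion genes.

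Each list combines both replicates of its group, so no value below carries a replicate error and sequencing depth is not given by the lists. Intervals are 95% Wilson intervals of a share and take in counting error over regions, no other source. Tests were exact two-sided sign-flip permutation tests in which the 8 proteins were the units, with Benjamini-Hochberg adjustment over all 16 tests. A p-value here measures whether the proteins went one way, although they are not replicates of each other. Their lists also share regions, so the units are not independent. Ubx+Hth and Abd-A+Hth, for example, shared 138 of the 185 distal regions that either list held. A result was called when the adjusted p was below 0.05. With 1 protein left out in turn, the called results kept that call in 1 to 5 of 8 repeats, and the direction in all. All libraries of Abd-B, Abd-A and Ubx were run on another sequencing platform than those of the other 5 proteins, and the means within each platform are given where they differ in direction. Start sites were those of every annotated transcript, and the annotation also enters 5809 transposable element insertions as genes. Without those entries 1220 regions were distal, including all 865, and with start sites of protein-coding genes alone 1888 were. The limit cut through a continuous distribution. The nearest regions beyond it lay 10006 and 10008 bp from a start site, in introns of dally and CG17839, and the nearest inside it lay 9995 and 9994 bp away.

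The following central windows of 200 bp come from distal regions that the results below turn on, and they are shown because they hold the composite Exd-Hox sequence (TGATTGAT or TGATTAAT or TGATTTAT), whose frequency is compared further on. The bab1 and Pex7 windows belong to regions of all 16 lists, the side-VI window to the longest region of Scr by itself, and the Ace, pum and robo2 windows to regions that appeared in several lists with Hth and in none without it. Sequences are from the RefSeq Release 6 assembly (dm6), plus strand, 5′ to 3′, with matches on either strand in capitals.
bab1 intron, chr3L:1090393-1090592: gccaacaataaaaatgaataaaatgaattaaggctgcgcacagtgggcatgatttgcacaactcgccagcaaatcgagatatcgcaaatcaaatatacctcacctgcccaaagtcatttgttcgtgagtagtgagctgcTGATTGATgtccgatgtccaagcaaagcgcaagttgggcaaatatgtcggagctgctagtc
intergenic, nearest coding start Pex7, chr3L:8661359-8661558: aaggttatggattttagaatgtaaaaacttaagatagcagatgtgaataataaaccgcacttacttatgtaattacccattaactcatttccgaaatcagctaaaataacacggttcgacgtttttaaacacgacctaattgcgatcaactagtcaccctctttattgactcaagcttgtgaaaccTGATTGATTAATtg
side-VI intron, chr3R:11019049-11019248: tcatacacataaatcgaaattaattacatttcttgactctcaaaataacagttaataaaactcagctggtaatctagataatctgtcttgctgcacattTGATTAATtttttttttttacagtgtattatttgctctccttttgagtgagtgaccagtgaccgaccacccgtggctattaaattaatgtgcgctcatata
Ace intron, chr3R:13231580-13231779: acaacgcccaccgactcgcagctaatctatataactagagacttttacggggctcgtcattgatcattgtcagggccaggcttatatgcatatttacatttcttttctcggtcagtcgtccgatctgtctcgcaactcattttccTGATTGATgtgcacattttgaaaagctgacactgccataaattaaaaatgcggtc
pum intron, chr3R:9134663-9134862: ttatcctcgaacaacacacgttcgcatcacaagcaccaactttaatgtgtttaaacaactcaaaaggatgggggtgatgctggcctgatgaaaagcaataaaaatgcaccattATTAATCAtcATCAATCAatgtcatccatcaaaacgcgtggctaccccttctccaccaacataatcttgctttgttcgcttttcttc
robo2 intron, chr2L:1404352-1404551: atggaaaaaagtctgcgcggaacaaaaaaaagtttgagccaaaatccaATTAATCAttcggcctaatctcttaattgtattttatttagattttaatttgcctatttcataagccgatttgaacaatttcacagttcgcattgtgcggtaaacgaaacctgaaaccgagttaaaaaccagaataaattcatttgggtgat
The Pex7 window holds matches that share bases, and the pum window holds matches of different sequence close together on the minus strand.

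Distal regions were mostly intronic. The centre lay in an intron of a protein-coding gene in 666 of 865 distal regions (77.0%), against 47.4% of the other regions, and outside every annotated gene in 161 (18.6%), against 26.1%. Centres in untranslated regions were found in 21 distal regions (2.43%) and in 19.2% of the other regions, and in coding exons in 5 (0.58%) and in 4.02%. The location and the distance rule are not independent, since exons near start sites could not enter. The intron share of all sequence beyond 10 kb was not computed, so these shares compare bound regions only. The median distance to the nearest start site was 13629 bp (quartiles 11590 and 17340 bp), and 528 regions lay between 10 and 15 kb, 191 between 15 and 20 kb, 111 between 20 and 30 kb, 24 between 30 and 40 kb, 9 between 40 and 50 kb and 2 farther. To the nearest start site of a protein-coding gene the median was 15359 bp and the highest distance 91961 bp.

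**Figure D1:**
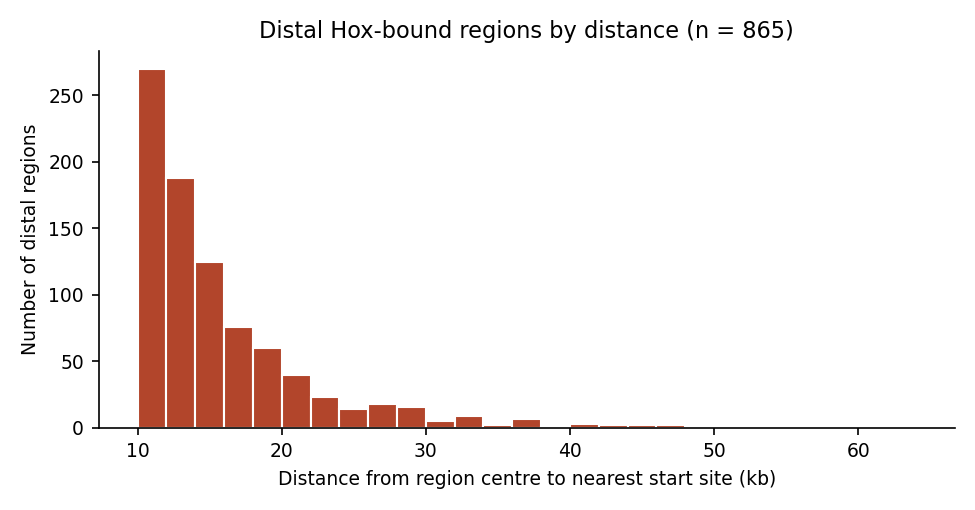
Number of distal regions by the distance in kb from the region's centre to the nearest annotated start site, in bins of 2 kb. Most of the 865 regions sit close to the 10 kb limit, with 528 of them below 15 kb, and the tail reaches 62233 bp.

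Sequence beyond 10 kb of every start site made up 14.9% of the 6 chromosome arms and was less densely bound than the rest. It held 43.4 distal regions per Mb, against 120.8 other regions per Mb in the remaining sequence. The authors kept uniquely matching reads only, and how much of either sequence such reads can cover was not measured. Among the large arms the density was highest on 2L, with 57.6 distal regions per Mb, followed by 3L with 48.8, 3R with 42.9, X with 42.4 and 2R with 30.0. The arm 3R held 244 distal regions, 3L 226, 2L 139, X 138 and 2R 118, and chromosome 4, where 181 bp lay beyond the limit, held 0. Of 1250 stretches longer than 20 kb between neighbouring start sites, 362 held a distal region, 175 of these held 1 and 45 held 5 or more. The stretch with most of them, 13, was the part of the cv-c locus at chr3R:14422549-14481713.

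Dfd with Hth bound most distal regions. Its list held 608 of 865 (70.3%), and 79.2% of all merged regions were in that list, the longest of the 16. The study lists more mapped reads for both Dfd+Hth libraries than for either Dfd library. For each of the other proteins, Abd-B among them, it lists a Hox+Hth library with fewer mapped reads than either library without Hth. The part of depth in the differences between these lists was not tested. The Dfd list without Hth held 278 (32.1%, against 47.7% of all merged regions). Pb+Hth held 346 (40.0%, against 32.4%) and Pb 324 (37.5%, against 32.7%). Lab+Hth held 276 (31.9%, against 27.0%) and Lab 195 (22.5%, against 21.3%). Pb and Lab were thus the proteins whose lists held a larger part of the distal regions than of all merged regions, although for Lab without Hth the interval of the distal share (19.9 to 25.4) took in the background. The other proteins held a smaller part, except that Antp+Hth was level. Scr+Hth held 212 distal regions (24.5%, against 40.4% of all merged regions) and Scr 195 (22.5%, against 42.2%). Antp+Hth held 144 (16.6%, against 16.9%) and Antp 102 (11.8%, against 19.7%). Ubx+Hth held 158 (18.3%, against 30.3%) and Ubx 81 (9.36%, against 20.7%). Abd-A+Hth held 165 (19.1%, against 35.4%) and Abd-A 127 (14.7%, against 30.7%). Abd-B+Hth held 275 (31.8%, against 53.6%) and Abd-B 311 (36.0%, against 58.1%).

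The first comparison asked whether the part of a protein's regions that was distal differed with Hth. It was larger with Hth in 7 of 8 proteins. Antp showed the largest difference, with 5.81% of its merged regions distal with Hth (interval 4.96 to 6.80) and 3.54% without it (2.93 to 4.28). For Dfd the share was 5.25% (4.86 to 5.67) with Hth and 3.98% (3.55 to 4.47) without, and for Ubx 3.57% (3.06 to 4.15) with Hth and 2.67% (2.15 to 3.31) without. Lab (6.98% with, 6.24% without Hth) and Pb (7.30% with, 6.77% without Hth) had high shares in both conditions, and for Abd-B the share was 3.51% with Hth and 3.66% without. Over the proteins the difference averaged 0.79 ± 0.73 percentage points (SD over proteins, n = 8, exact permutation p = 0.0156, adjusted p = 0.0278). It was 0.55 points in the lists called at the stricter threshold of q 1e-10 (adjusted p = 0.123) and 0.21 points beyond 20 kb (adjusted p = 0.05), neither of which the exact permutation test called. With a limit of 5 kb it was 2.11 points, and with start sites of protein-coding genes 1.55 points (adjusted p = 0.0278 for both, exact permutation tests). Antp, Ubx and Abd-A, the central proteins of the study, averaged 3.01% distal without Hth, and the other 5 proteins averaged 4.76%, a difference that an exact permutation test over the 56 choices of 3 proteins did not call (p = 0.143, adjusted p = 0.176, smallest possible p 0.0179).

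**Figure D2:**
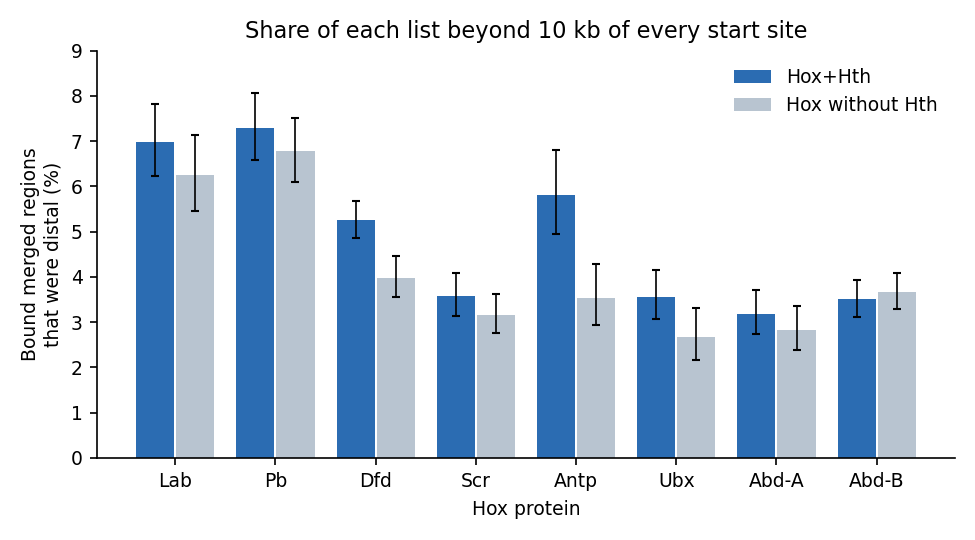
Percent of the merged regions bound in each list that were distal, for the 8 proteins with Hth (left bars) and without Hth (right bars), with 95% Wilson intervals. The bar with Hth is higher for every protein except Abd-B, and Lab and Pb stand highest in both conditions.

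Most distal regions were bound by few proteins. Of the 865, 294 (34.0%) were in 1 of the 16 lists, against 23.7% of all merged regions, and 43 (4.97%) were in all 16, against 6.19%. The median was 3 lists for distal and 4 for other regions. A single protein, with or without Hth, bound 371 distal regions (42.9%), against 30.8% of all merged regions. Dfd was that protein in 187 of the 371, and 164 of these were in its list with Hth only. Abd-B followed with 69 (36 in its list without Hth only, 23 in both and 10 with Hth only), Pb with 48 (25 in both lists) and Lab with 43 (33 with Hth only). Scr bound 14 distal regions by itself, Ubx 5, Antp 3 and Abd-A 2. In the 4128 other regions bound by a single protein, it was Dfd in 2196, Abd-B in 1049, Lab in 284 and Pb in 281. Scr bound 174 of them, Ubx 63, Abd-A 56 and Antp 25. Dfd thus led in both sets. Pb and Lab made up a larger part of the distal than of the other single-protein regions, and Abd-B a smaller part. All 8 proteins with Hth bound 65 distal regions (7.51%, against 8.84% of all merged regions), and all 8 without Hth bound 49 (5.66%, against 8.74%).

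**Figure D3:**
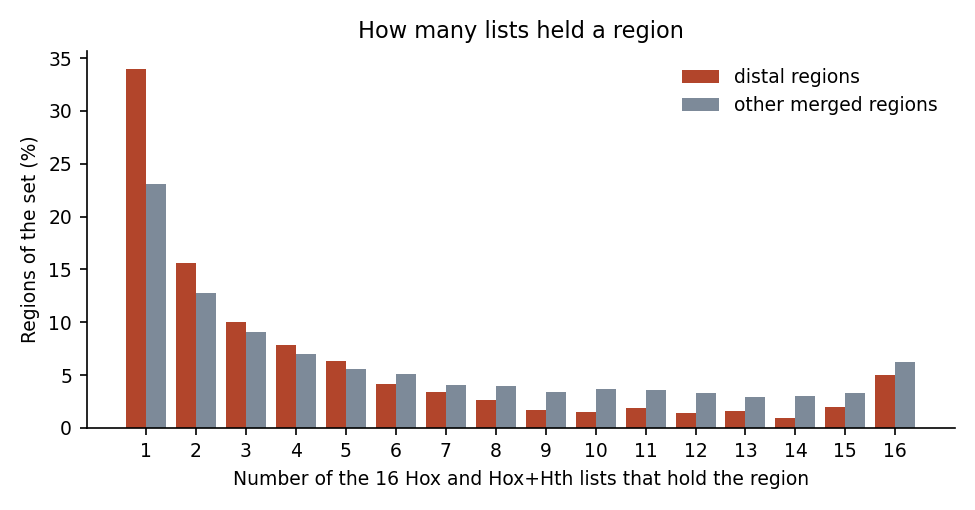
Percent of distal regions (left bars) and of other merged regions (right bars) by the number of the 16 lists that held them. Distal regions exceed the others at 1 to 5 lists, with 34.0% against 23.1% in 1 list, and fall below them from 6 lists onward.

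Lab, Pb or Dfd, and none of the other 5 proteins, bound 437 distal regions in either condition (50.5%, interval 47.2 to 53.8), against 30.2% of all merged regions. With the Dfd lists left out, 250 of the 678 distal regions bound by the remaining proteins were bound by Lab or Pb and by none of the other 5 (36.9%, 33.3 to 40.6), against 16.6% of all merged regions so counted. The reverse class, bound by Scr, Antp, Ubx, Abd-A or Abd-B and by none of Lab, Pb and Dfd, held 131 distal regions (15.1%), against 14.2% of all merged regions. This grouping was chosen after the values were seen and was not tested.

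Within each protein's list, distal regions were more often bound by that protein alone. With Hth, regions that no other Hox+Hth list held made up 34.7% of the distal regions of Dfd (interval 31.0 to 38.6), against 24.9% of its other regions (24.1 to 25.8). For Lab the share was 14.5% of distal and 7.09% of other regions, for Abd-B 13.8% and 8.74%, and for Pb 10.4% and 4.78%. All 8 proteins showed the larger share in distal regions, the mean difference being 4.55 ± 3.11 points (SD, n = 8, exact permutation p = 0.00781, the smallest this test can give, adjusted p = 0.025). Without Hth the difference averaged 4.12 ± 4.43 points and was above 0 in 7 of 8 proteins (SD, n = 8, exact permutation p = 0.0156, adjusted p = 0.0278). Pb had 24.1% of its distal regions to itself without Hth, against 11.3% of its other regions, and Abd-B 28.9% against 21.4%, while Antp had 0 of 102 distal regions to itself, which allows a share of up to 3.63% by the upper bound of the interval. The difference with Hth minus that without it was 0.43 ± 3.70 points and was not called (SD, n = 8, exact permutation p = 0.734, adjusted p = 0.773), with a mean of 0.90 points in the 5 proteins of one platform and −0.36 points in Ubx, Abd-A and Abd-B. In the q 1e-10 lists the same exact test gave 2.42 points with Hth (adjusted p = 0.0729) and 1.80 points without (adjusted p = 0.306), and beyond 20 kb 3.71 and 5.86 points (adjusted p = 0.0625 for both, exact permutation tests throughout).

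All 8 proteins without Hth bound 5.66% of the distal regions (interval 4.31 to 7.41), against 8.93% of the other regions (8.46 to 9.42). Within the lists of single proteins the difference was not uniform. The same regions are counted in every list, so that difference follows the number of regions each list held. The permutation test below therefore cannot decide whether sharing differed. Without Hth the 49 distal regions of all 8 proteins made up 60.5% of the distal regions of Ubx, against 41.6% of its other regions, but 25.1% of the distal regions of Lab, against 42.0% of its other regions. The distal share exceeded the other by 1.06 ± 11.53 points on average (SD, n = 8, exact permutation p = 0.773, adjusted p = 0.773). It averaged −4.32 points in the 5 proteins of one platform and 10.0 points in Ubx, Abd-A and Abd-B.

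Distal regions were more often bound with Hth only. Of the 865, 305 (35.3%, interval 32.1 to 38.5) were in a Hox+Hth list and in no Hox list without Hth, against 23.6% of all merged regions. Lists of both conditions held 496 (57.3%, against 71.0%), and lists without Hth only held 64 (7.40%, against 5.38%). Much of the first class came from Dfd, whose libraries with Hth were sequenced more deeply than those without it. With both Dfd lists left out it was 152 of 678 distal regions (22.4%), against 12.2% of the other regions so counted. For each protein, the share of its Hox+Hth regions that its own list without Hth did not hold was larger in distal regions. It was 55.6% of the distal regions of Dfd+Hth (338 of 608), against 39.7% of the other regions, 49.4% (78 of 158) against 34.3% for Ubx+Hth, 46.5% (67 of 144) against 32.7% for Antp+Hth, and 43.5% (120 of 276) against 35.2% for Lab+Hth. For the remaining proteins the shares were 29.1% against 20.3% (Abd-A+Hth), 23.6% against 12.6% (Scr+Hth), 19.4% against 14.8% (Pb+Hth) and 13.8% against 7.79% (Abd-B+Hth). This excess averaged 10.4 ± 4.23 points (SD, n = 8, exact permutation p = 0.00781, adjusted p = 0.025), and in the q 1e-10 lists it was 4.24 points (adjusted p = 0.082).

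Distal regions gained with Hth by one protein were often held by other lists, and so were other regions. Of the 338 distal regions gained by Dfd, 164 were in no other Hox list, and of its 4355 other gained regions 1874. A further 48 of the 338 were shared only with more Hox+Hth lists, and 126 were bound by another Hox protein without Hth. Of the 78 distal regions gained by Ubx, 62 were bound by another Hox protein without Hth. In no other list were 4 of these 78, and 42 of the 1464 other regions gained by Ubx. Binding of gained regions by another protein without Hth was counted for distal regions only, so it has no background here. Loss with Hth showed no uniform difference. It affected 13.9% of the distal and 15.5% of the other regions on average (mean difference −1.66 ± 7.95 points, SD, n = 8, exact permutation p = 0.641, adjusted p = 0.732), with −3.56 points on one platform and 1.51 points for Ubx, Abd-A and Abd-B. The largest contrast was in Antp, which lost 25 of 102 distal regions (24.5%, interval 17.2 to 33.7), against 43.5% of its other regions (41.7 to 45.3).

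Distal regions overlapped the cofactors' own regions less often. A region of the Hth list overlapped 124 distal regions (14.3%), against 28.2% of all merged regions, and a region of the Exd+Hth list overlapped 307 (35.5%), against 54.5%. In the Hox+Hth lists, overlap with Hth was lower in distal regions of all 8 proteins. It was 22.8% against 48.8% in Pb+Hth, 17.3% against 33.5% in Dfd+Hth and 61.8% against 65.3% in Abd-A+Hth, and the difference averaged −14.0 ± 7.70 points (SD, n = 8, exact permutation p = 0.00781, adjusted p = 0.025). Overlap with Exd+Hth averaged 69.2% in distal and 80.5% in other regions, lower in distal regions of 7 of 8 proteins (−11.3 ± 9.33 points, SD, n = 8, exact permutation p = 0.0156, adjusted p = 0.0278). Dfd+Hth (37.3% of distal against 59.9% of other regions) and Pb+Hth (44.5% against 69.8%) differed most, and Abd-A+Hth had 92.1% against 91.5%. By the same exact test the Hth difference was −3.73 points in the q 1e-10 lists (adjusted p = 0.378), −9.23 points at 5 kb (adjusted p = 0.0417) and the Exd+Hth difference −7.11 points beyond 20 kb (adjusted p = 0.05). Overlap moved with breadth of binding. Of the 43 distal regions in all 16 lists, 43 overlapped Exd+Hth and 42 overlapped Hth, whereas of the 305 in Hox+Hth lists only, 68 (22.3%) overlapped Exd+Hth and 9 (2.95%) overlapped Hth. The corresponding shares in the 3152 other regions of that class were 25.8% and 4.60%. The part of breadth in the cofactor differences was not tested.

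**Figure D4:**
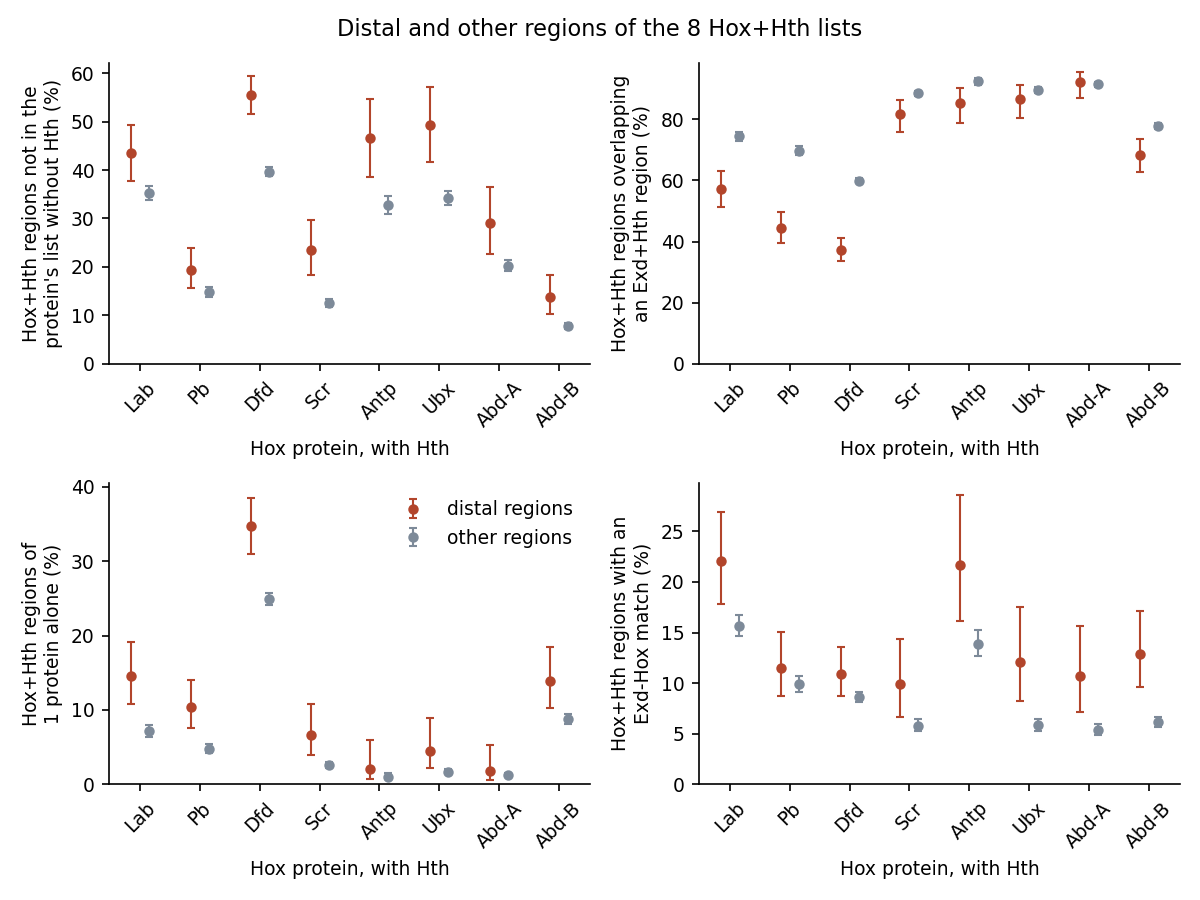
Shares for distal regions (left points) and other regions (right points) of each Hox+Hth list, in percent with 95% Wilson intervals: regions not in the protein's list without Hth, regions overlapping Exd+Hth, regions of 1 protein alone among the Hox+Hth lists, and list regions with an Exd-Hox match in the central 200 bp. Distal points lie above the others for all 8 proteins in every panel except Exd+Hth overlap, where they lie below for all but Abd-A.

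Binding sequences were more frequent in distal regions. The Exd-Hox sequence, illustrated by the windows printed above, occurred in the central 200 bp of 9.29% of all merged regions and of 107 of 865 distal regions (12.4%, interval 10.3 to 14.7). In the lists with Hth its share was higher in distal than in other list regions for all 8 proteins. It was 22.1% (70 of 317) against 15.6% in Lab+Hth, 21.7% (36 of 166) against 13.9% in Antp+Hth, 12.9% against 6.13% in Abd-B+Hth, 12.1% against 5.84% in Ubx+Hth and 11.5% against 9.88% in Pb+Hth. The difference averaged 5.08 ± 2.20 points (SD, n = 8, exact permutation p = 0.00781, adjusted p = 0.025), and in the q 1e-10 lists 4.76 points (adjusted p = 0.0729). Searched over whole list regions in place of central windows it was 10.7 points. Among distal regions the sequence was found in 68 of the 305 in Hox+Hth lists only (22.3%, 18.0 to 27.3), in 37 of the 496 in both conditions (7.46%, 5.46 to 10.1) and in 2 of the 64 without Hth only (3.13%, 0.86 to 10.7). The other regions in Hox+Hth lists only had it in 19.1% (17.7 to 20.5), so that within this class the intervals of distal and other regions overlapped.

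The versions of the sequence differed in frequency between lists, in distal and in other regions alike. In distal regions of Lab+Hth the version TGATTGAT occurred in 34 of 317 list regions (10.7%, interval 7.78 to 14.6), against 2 of 240 (0.83%, 0.23 to 2.99) in distal regions of Lab without Hth. In the other regions the shares were 7.50% for Lab+Hth and 1.98% for Lab. TGATTAAT was nearly as frequent in distal regions of Lab+Hth, in 30 of 317 (9.46%), against 12 of 240 for Lab. In Antp+Hth it was TGATTTAT that was most frequent, in 20 of 166 distal list regions (12.0%, 7.94 to 17.9), against 4 of 125 (3.20%, 1.25 to 7.94) for Antp without Hth, and in the other regions the shares were 7.37% for Antp+Hth and 1.83% for Antp. The same version was found in 16 of 190 distal regions of Ubx+Hth (8.42%), against 3 of 100 for Ubx, and in 15 of 206 of Abd-A+Hth (7.28%), against 7 of 149 for Abd-A (4.70%). In Abd-B+Hth it was found in 21 of 310 distal regions (6.77%), against 13 of 351 for Abd-B (3.70%). The differences between versions were not tested.

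The simple Hox sequences gave a like picture in the lists without Hth. HoxB (TTTATGA or TTTATGG or TTTATTA or TTTATTG on either strand), a form that Abd-B prefers, was found in 34.5% of distal and 24.7% of other list regions on average, more often in distal regions of all 8 proteins (9.85 ± 3.17 points, SD, n = 8, exact permutation p = 0.00781, adjusted p = 0.025). Abd-B had it in 162 of 351 distal list regions (46.2%, interval 41.0 to 51.4), against 30.8% of the other ones. HoxA (TTAATGA or TTAATTA on either strand), which like HoxB can share bases with an Exd-Hox match, averaged 22.0% in distal and 16.3% in other list regions (5.64 ± 5.58 points, SD, n = 8, higher in 7 of 8, exact permutation p = 0.0313, adjusted p = 0.0417). The difference was 13.5 points in Dfd and 11.7 in Pb but −3.74 points in Ubx, where 5 of 100 distal list regions had a match. The 5 proteins of one platform averaged 8.35 points and Ubx, Abd-A and Abd-B 1.13 points. Over whole list regions the HoxA difference was 10.7 points. The exact test called neither difference beyond 20 kb (HoxB 4.31 points, adjusted p = 0.24, and HoxA 6.04 points, adjusted p = 0.198) nor in the q 1e-10 lists (8.41 points, adjusted p = 0.0729, and 3.22 points, adjusted p = 0.123). In all merged regions HoxA was found in 22.2% and HoxB in 30.2% of central windows. These sequences are rich in A and T, and GC content was lower in distal list regions of 7 of 8 proteins, at 42.7% on average against 43.5% (−0.74 ± 0.45 points, SD, n = 8, exact permutation p = 0.0156, adjusted p = 0.0278). The exact test did not call the GC difference beyond 20 kb (−0.30 points, adjusted p = 0.193) or in the q 1e-10 lists (−0.60 points, adjusted p = 0.123), and it was −1.12 points at 5 kb. The largest GC difference was −1.43 points in Lab and the smallest 0.03 points in Ubx, and in the lists with Hth it ran from −1.30 points in Pb+Hth to 0.13 points in Ubx+Hth. The part of base composition in the motif differences was not tested.

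Distal regions were more often in the strict lists. Of the distal regions of the lists without Hth, 52.2% on average overlapped a region of the same protein at q 1e-10, against 42.9% of the other regions (9.33 ± 6.82 points, SD, n = 8, higher in 7 of 8, exact permutation p = 0.0234, adjusted p = 0.0341). The share was 43.1% against 24.3% in Antp and 64.1% against 51.9% in Scr, and nearly the same in Dfd (54.0% against 54.1%) and Abd-B (53.1% against 53.0%). Without Hth, list regions were wider in distal positions for 7 of 8 proteins. The mean log2 ratio of the median widths was 0.12 ± 0.11 (SD, n = 8, exact permutation p = 0.0234, adjusted p = 0.0341). The widest contrast was in Antp, with medians of 562 bp in distal and 465 bp in other list regions. By exact test beyond 20 kb the strict-list difference was 13.0 points (adjusted p = 0.0625) and the log2 width ratio 0.15 (adjusted p = 0.113). Without transposable element entries the strict-list difference was 6.09 points, and the log2 width ratio was 0.08 and the exact test did not call it (adjusted p = 0.146).

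Distal regions of all 16 lists were wide. The 43 had a median width of 2499 bp, against 2191 bp in the 862 other regions of all 16 lists, and 463 bp in the 305 distal regions of Hox+Hth lists only. The 6 longest that also lay in all 16 lists at q 1e-10 were an intron of eIF5B, which encodes a translation initiation factor (chr3L:3435345-3441240), an intron of bab1, a BTB transcription factor gene of limb and ovary patterning (chr3L:1088424-1092562), an intron of mamo, a zinc finger transcription factor gene (chrX:13887888-13891926), an intergenic stretch near the peroxisomal import gene Pex7 (chr3L:8659628-8663289), an intron of B4 (chr2L:13512553-13515908) and an intergenic stretch near CG43402 (chr2L:1460667-1463512). The mamo region lay 43436 bp from the nearest start site. All 6 overlapped both an Hth and an Exd+Hth region, and 2 of them, at bab1 and near Pex7, held an Exd-Hox match in the central window.

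The region farthest from any start site lay 62233 bp away in an intron of bru3, which encodes a Bruno family RNA-binding protein (chr3L:13728706-13729257). It was in the Lab+Hth and Scr+Hth lists, in no list without Hth and in no list at q 1e-10. The next 3 in distance lay in the intron of hth at 50312, 47777 and 46799 bp. Of these, chr3R:10563248-10563641 was in the Abd-B list only, chr3R:10565977-10567020 in 6 Hox+Hth lists and 3 Hox lists (Pb, Dfd and Abd-B), and chr3R:10567150-10567804 in Dfd+Hth, Scr+Hth and Abd-A+Hth.

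The longest distal regions held by 1 protein lay in introns, with 2 exceptions. For Dfd this was a region of 2177 bp in an intron of the neuropeptide receptor gene TrissinR, in the list with Hth only (chr2L:5848927-5851103). For Pb it was a region of 1018 bp in an intron of the axon guidance gene Sema1a, in both conditions (chr2L:8643515-8644532), for Lab one of 911 bp in CG31145 with Hth only (chr3R:23635210-23636120), for Scr one of 731 bp in side-VI with Hth only (chr3R:11018784-11019514), for Antp one of 633 bp in hth with Hth only (chr3R:10546510-10547142) and for Abd-A one of 318 bp in futsch, a gene of the neuronal microtubule cytoskeleton, with Hth only (chrX:1423934-1424251). Abd-B had an intergenic region of 833 bp on the bab1 side of the bab locus in both conditions (chr3L:1118187-1119019). Ubx had an intergenic region of 276 bp without Hth only (chr2R:2879868-2880143). The regions of Dfd, Lab, Pb and Abd-B were also in lists at q 1e-10, and those of Scr, Antp, Ubx and Abd-A were not.

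Among the 305 distal regions that appeared with Hth only, the most widely bound were in 7 Hox+Hth lists. One lay in an intron of B4 (chr2L:13516097-13517323) and lacked only Pb+Hth, and the other lay in an intron of Glut4EF, which also overlaps CG46467 (chr3R:9958860-9960033), and lacked only Abd-A+Hth. Regions in 5 Hox+Hth lists lay in introns of Ace, the acetylcholinesterase gene (chr3R:13231174-13232186), and of pum, which encodes the translational repressor Pumilio (chr3R:9134462-9135063). A further 8 regions were in 4 Hox+Hth lists, and among these the tie was broken by the number of q 1e-10 lists and then by length, which gave introns of the axon guidance receptor gene robo2 (chr2L:1403673-1405230) and of osp (chr2L:14663662-14665326). An Exd+Hth region overlapped 5 of the 6 regions named, and the Ace, pum and robo2 regions held the Exd-Hox matches shown above.

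A few long genes held several distal regions each. Protein-coding genes held 692 of the 865 centres, and 117 genes held 1 and 46 held 5 or more. The 10 leading genes held 113. The gene pum had 14, of which 14 were bound with Hth, 7 without it and 7 with Hth only, and Dfd+Hth was present at 13. Tet, which encodes a dioxygenase of the TET family, had 13, and cv-c had 13. The RNA-binding protein gene cpo, hth itself and sbb, a transcriptional corepressor gene, had 12 each, the teneurin gene Ten-m had 10, and CG42663, the furin protease gene Fur1 and the TSC22 family gene bun had 9 each, as did mamo and mtgo. Of the 12 sbb regions 1 was found with Hth only, the lowest share among these 12 genes.

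**Figure D5:**
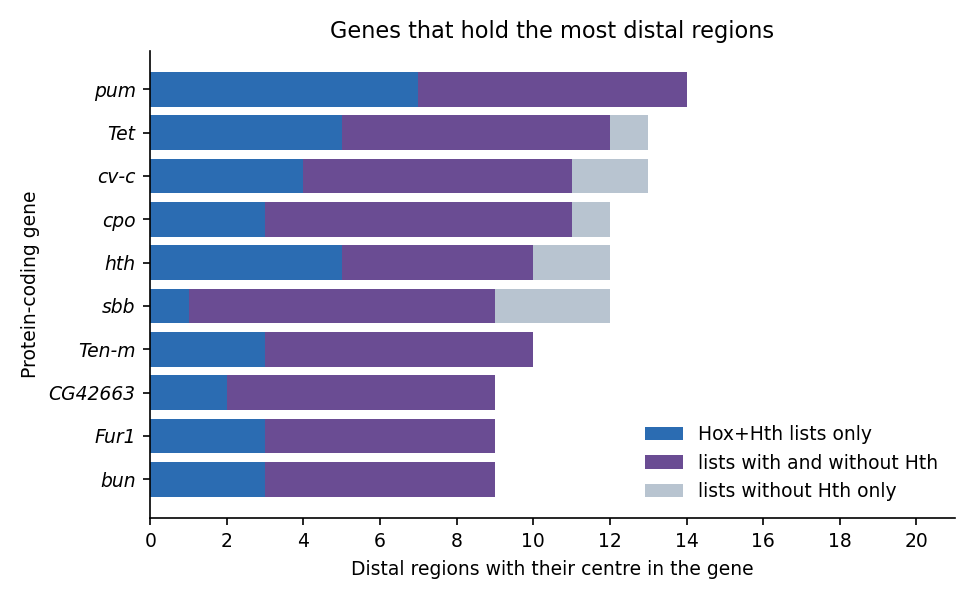
Number of distal regions with their centre in each of the 10 protein-coding genes that held most of them, split into regions found in Hox+Hth lists only, in lists of both conditions and in lists without Hth only. The gene pum leads with 14, 7 of them with Hth only, and sbb has 1 with Hth only among 12.

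The proteins present differed from gene to gene. At Fur1 all 9 regions were bound by Dfd with Hth, 5 by Pb with Hth and 6 by Pb without it, whereas Scr, Antp, Ubx and Abd-A bound 0 in either condition and Abd-B bound 2 without Hth. At cpo, Pb bound 9 of 12 regions with Hth and 9 without it, and Abd-B bound 1 with Hth and 0 without it. A cpo region with an Exd-Hox match (chr3R:17965614-17966354) was the exception, being held by Antp+Hth, Ubx+Hth, Abd-A+Hth and Abd-B+Hth and by no list without Hth. At hth, 12 regions were spread over all 8 proteins, with 5 found with Hth only. The broadest of them (chr3R:10568134-10569516) was in 14 lists, those of every protein but Pb in both conditions. The hth coding sequence was on the Hox+Hth plasmids and regions over plasmid exons had been removed by the authors, and the 12 regions lay in the intron. Leaving out all regions at genes carried on the plasmids and at MtnA left 850 distal regions and changed no call.

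By nearest start site of a protein-coding gene, the 865 regions fell to 412 genes, 220 of them with 1 region and 37 with 5 or more. The leading genes were hth and pum with 12 each, Tet with 10, bab1, cpo, cv-c and mtgo with 9, the homeobox gene B-H2 and the ecdysone-induced ETS gene Eip74EF with 8, and CG43188 with 7. For 422 of the 692 regions inside a protein-coding gene, the nearest coding start site belonged to the gene that held it. B-H2 and Eip74EF showed different sets of proteins. Of the 8 regions near B-H2, all of them intergenic, Pb bound 6 with Hth and 5 without it, and Scr, Antp, Ubx and Abd-A bound 0 in either condition. Of the 8 in Eip74EF, Dfd+Hth bound 8, Scr, Ubx, Abd-A and Abd-B bound 4 each with Hth, and without Hth Scr, Abd-A and Abd-B bound 4 each, Ubx 3 and Antp 2. One of the Eip74EF regions was in all 16 lists (chr3L:17590137-17591313).

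Distal regions were then counted over lists of genes by function. A gene was counted for a list when it held a distal region or had the nearest coding start site. Among the 1573 protein-coding genes that reach beyond 10 kb, in body or as nearest start site, 489 (31.1%) were so counted. Of the 15 ecdysone response genes 10 reach beyond the limit and 6 were counted, with 19 regions. They were led by Eip74EF, by the receptor gene EcR with 4 regions, 1 of them in all 16 lists, and by Eip75B and Eip93F with 2 each. Of 17 such homeobox genes outside the Hox and TALE lists 8 were counted, with 21 regions, among them B-H2 with 8, ct, a gene of sense organ identity, with 6 and B-H1 with 2. Of 14 appendage patterning genes 6 were counted, with 17 regions, 11 of them at bab1, and 2 at the zinc finger gene Sp1. Of 33 axon guidance and adhesion genes 13 were counted, with 38 regions, among them Ten-m with 10, the cell fusion gene kirre with 7, the leucine-rich repeat gene caps with 5 and the Wnt receptor gene fz with 3.

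The smaller lists varied. Of 10 segmentation genes that reach beyond the limit 5 were counted, with 10 regions, 5 of them at the homeobox gene inv, where Lab, Pb and Dfd made up all binding, and 2 each at en and hry, the nearest start site of 1 region in inv being that of en. Of 7 haemocyte genes 4 were counted, with 5 regions, 2 at the GATA cofactor gene ush and 1 each at lz, peb and kn. In the Notch pathway N and mam had 4 regions each, and the remaining 3 genes that reach beyond the limit, among them the ligand gene Delta, had 0. Of 17 ion channel and neurotransmitter receptor genes 3 were counted (17.6%), with 6 of the 8 regions at the acetylcholine receptor subunit gene nAChRalpha6 and 1 each at para and 5-HT1A. Of the 4 TALE homeobox genes that reach beyond it, hth had 12 regions and mirr 3. The 18 ribosomal protein genes had 0 distal regions, and 1 of them reaches beyond the limit. Counts of these sizes are a description, since the lists were chosen with results of these data known.

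The Hox genes themselves had 3 distal regions. An intron of Ubx held a region in all 16 lists with an Exd-Hox match in its central window (chr3R:16702722-16703416). An intron of Antp held a region in the Abd-B list only (chr3R:6945028-6945505), and an intron of abd-A held a region in the Ubx+Hth and Abd-B+Hth lists that also had an Exd-Hox match (chr3R:16811727-16812026). The genes lab, pb, Dfd, Scr and Abd-B had none. A further region of all 16 lists lay between abd-A and Abd-B, in the stretch chr3R:16856342-16891963. It lay in MSAmiP and so was not counted for a Hox gene. Of the metallothionein genes, which respond to copper, MtnE had 1 intergenic region 10051 bp away, bound by Dfd with Hth and by Pb and Dfd without it (chr3R:20524324-20524982), and MtnA, MtnB, MtnC and MtnD had none.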

How the data were processed

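Binding was measured by ChIP-seq in 36 ChIP and 18 input libraries of Kc167 cells. The study lists identical read numbers for the inputs of Abd-A and Abd-B, and likewise for those of Abd-A+Hth and Abd-B+Hth, so these groups appear to share inputs. The authors kept uniquely matching reads (Bowtie 1.2.2, dm6) and ran MACS2 2.1.1.20160309 on every replicate against its input at q 0.01 and 1e-10 (study methods and submitters' notes). They removed peaks over plasmid exons and kept the union of overlapping peaks of both replicates. The deposited files give region starts and ends in bp and a score column holding 0 in each line, which left peak height unused. Read depth is not given by them.

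The 16 Hox lists at q 0.01 were merged at 1 bp overlap. Distances ran from the centre of a merged region to the nearest start site among 29371 sites of Ensembl release 115, and all list regions ended within their arms. Motifs were sought on both strands in the central 200 bp. Shares of binding were computed over merged regions and sequence measures over each list's own regions. Exact two-sided sign-flip permutation was run with proteins as units. Alternatives were limits of 5 and 20 kb, protein-coding start sites, the q 1e-10 lists, leaving out each protein, leaving out plasmid genes, the centre of each list region, central windows for overlap and whole regions for sequence. Start sites without transposable elements, leaving out proteins in the count of regions with Hth only and leaving out Dfd in the anterior class were chosen after seeing the data. The members and all lists were chosen with earlier results of these data known. Exd+Hth at q 1e-10 was not used here.

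Named by rule were the 6 regions in most lists, the 4 farthest, the longest of each protein, the 6 with Hth only in most lists, the 2 on each side of the limit, the 10 genes with most regions inside and by nearest start site, 4 members of each of 12 gene lists, and all Hox and metallothionein genes. The regions cited at cpo, Eip74EF and in the hth intron beyond these, and mamo and mtgo as ties, were chosen after their values were seen. All 236 list entries were matched by symbol, 4 through a synonym. The functions were tested on simulated data with planted overlaps and motifs. Software was scipy 1.17.1 and numpy 2.4.6 under Python 3.11.15, with matplotlib 3.10.9 for plots.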

Additional observations from a re-analysis of the deposited data

Results flagged for a closer look

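Regions of the cofactors far from start sites also lay outside the Hox lists, in data that the comparisons use only for overlap. Of 476 Exd+Hth regions more than 10 kb from every start site, 148 (31.1%, interval 27.1 to 35.4) overlapped no Hox or Hox+Hth region, against 21.7% of the Exd+Hth regions closer to a start site. Of 163 such regions in the Hth list, 9 (5.52%, 2.93 to 10.2) overlapped none, against 4.71% of those closer to a start site. The difference was not tested. The distal share was 4.58% of the Exd+Hth list and 3.04% of the Hth list. According to the study, the Exd+Hth ChIP had a low background, through which weaker peaks entered its list.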

How the results depend on the processing

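No paired analysis was possible because each list combines both replicates of its group, so that replicate numbers could not be used, although the tests did compare values within each protein. Among the tests, leaving out plasmid genes, whole regions for sequence and the centre of each list region changed no call or direction, but with whole regions the Exd-Hox and HoxA differences were both 10.7 points. The number of distal regions was 2549 at 5 kb, 146 at 20 kb and 1888 with protein-coding start sites. Differences that were not called turned direction: sharing by all 8 proteins was −1.55 points at 5 kb, −1.50 at 20 kb, −0.0029 with protein-coding start sites, −0.78 without transposable elements and −1.06 with central windows, and the change of the private difference with Hth was −0.25 at 5 kb, −2.15 at 20 kb, −0.037 with protein-coding start sites and −0.036 without transposable elements. At 20 kb, where 146 regions remained, calls were lost for the distal share with Hth (0.21 points), private share without (5.86) and with Hth (3.71), Exd+Hth overlap (−7.11), strict-list share (13.0), HoxA (6.04), HoxB (4.31), GC content (−0.30) and width (log2 0.15). With the q 1e-10 lists they were lost for the distal share with Hth (0.55), private share without (1.80) and with Hth (2.42), Hth-dependent share (4.24), Hth overlap (−3.73), Exd-Hox (4.76), HoxA (3.22), HoxB (8.41), GC content (−0.60) and width (log2 0.078), all in the same direction. Without transposable elements the width call was lost (log2 0.080). Exd+Hth overlap and the strict-list share were not run with the q 1e-10 lists.

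With 1 protein left out the smallest possible p of the exact permutation test is 0.0156, and by adjusted p the call was kept in 5 of 8 such fits for the private share with Hth, the Hth-dependent share, Hth overlap, Exd-Hox and HoxB, in 3 for the private share without Hth, Exd+Hth overlap and GC content, in 2 for the distal share with Hth, the strict-list share and width (highest adjusted p 0.0556, 0.0682 and 0.0682), and in 1 for HoxA (highest 0.0833). Unadjusted p stayed below 0.05 in 8 of 8 for each of these except HoxA (3 of 8). All kept their direction, and the values ran from 0.58 to 0.93 points for the distal share with Hth, 2.89 to 4.76 and 3.80 to 5.11 for the private share without and with Hth, 9.65 to 11.3 for the Hth-dependent share, −15.5 to −12.3 for Hth and −13.1 to −9.36 for Exd+Hth overlap, 7.98 to 10.7 for the strict-list share, 4.69 to 5.57, 4.52 to 6.98 and 9.07 to 10.5 for Exd-Hox, HoxA and HoxB, −0.85 to −0.64 for GC content and 0.10 to 0.14 for the log2 width ratio. Differences that were not called ran from −1.49 to 3.61 for sharing by all 8 proteins, −3.17 to 0.82 for loss with Hth (above 0 without Antp), −2.15 to −1.25 for central proteins and −0.12 to 1.51 for the change of the private difference. The share of distal regions with Hth only ran from 22.4% without Dfd to 41.0% without Pb.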
